A study of Homo sapiens with 6 samples.

Results

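NRF2 and glutathione genes were examined in the human osteosarcoma line U-2 OS, with and without ionizing radiation (IR). The 9 genes were set by symbol (NFE2L2, KEAP1, GCLC, GCLM, SLC7A11, NQO1, HMOX1, TXNRD1 and SRXN1), and each was found by matching transcripts to the symbols of the GENCODE annotation and adding up the estimated counts per gene. All 9 were among the 21447 genes with a matched transcript, and all 9 passed the filter on low counts, as did 14323 genes in total. Bulk RNA-seq was performed on unsynchronised cells that were either left untreated or exposed to 4 Gy of IR and collected 24 h later, with 3 libraries per group. Both groups are labelled as U-2 OS cells, no other agent or allele is named for either, and no library was taken at another time or dose. The methods call the 3 samples of a group independent, without saying whether each was a culture of its own, and p-values measure the spread between these samples. Between 18573309 and 22953834 estimated counts were obtained for 5 of the libraries and 45308792 for IR replicate 3, which therefore has the smallest counting error and stands apart in depth.

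NRF2, the protein of NFE2L2, is a transcription factor that induces antioxidant and detoxifying enzymes. KEAP1 is the adaptor that presents NRF2 to a CUL3 ubiquitin ligase for degradation, and oxidants or electrophiles that modify KEAP1 let NRF2 accumulate and bind antioxidant response elements together with small MAF proteins. Because this control acts largely on NRF2 protein, which RNA-seq does not measure, the messenger RNAs of its targets are commonly read beside that of NFE2L2 itself. Glutathione, the main small thiol of cells, is made from cysteine, glutamate and glycine, and its synthesis depends on cystine uptake by SLC7A11 and on glutamate–cysteine ligase, whose catalytic and modifier subunits are GCLC and GCLM.

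The core of the antioxidant response element was searched by the letters TGACNNNGC on both strands of the RefSeq promoter windows (GRCh38.p14) that run from 250 bases before to 50 bases after each annotated start. Of the 9 genes, 7 matched a RefSeq symbol with 10 windows, and HMOX1 and SLC7A11 did not match. The core was present in 4 of the 10 windows and in 13.3% of all 35116 windows. These 4 were the window of GCLM, both windows of TXNRD1 and that of the KEAP1 start at 10502771. Sequence more than 250 bases before a start was not searched, so that a gene without a match may hold the core there. The matches that end before the start are printed with 10 bases on each side, 5′ to 3′ on the strand of the gene, because the transcript data of the same genes relate to these starts, and the capitals mark the match.
GCLM: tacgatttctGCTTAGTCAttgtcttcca
TXNRD1, first start: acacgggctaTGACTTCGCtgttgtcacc
TXNRD1, second start: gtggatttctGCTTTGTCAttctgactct
KEAP1, farther match: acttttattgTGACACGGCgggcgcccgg
KEAP1, nearer match: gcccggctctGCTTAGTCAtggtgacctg
The GCLM stretch lies at chr1:93909446-93909474 on the minus strand, with the match beginning 34 bases before the start at 93909430. The TXNRD1 stretches lie on the plus strand, at chr12:104215670-104215698, where the match begins 99 bases before the start at 104215779, and at chr12:104286920-104286948, where it begins 102 bases before the start at 104287032. The KEAP1 stretches lie on the minus strand at chr19:10502807-10502835 and chr19:10502784-10502812, with matches 54 and 31 bases before the start at 10502771. In GCLM, at the second TXNRD1 start and in the nearer KEAP1 match the core reads on the opposite strand. A further match spanned the first TXNRD1 start and is not printed. TGANTCA, a form of the AP-1 site, was in 7.71% of all windows and in none of the 10. A match is a run of letters and not a measured binding site.

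Among the 9 genes, 1 was higher and 4 were lower 24 h after IR at an adjusted P under 0.05 in the quasi-likelihood test of edgeR, and 4 were not called. HMOX1, the inducible heme oxygenase, was higher, whereas SLC7A11, both subunits of glutamate–cysteine ligase and TXNRD1 were lower. NFE2L2, KEAP1, NQO1 and SRXN1 were not called. Over all 14323 tested genes, 30.1% were called, 15.5% as higher and 14.5% as lower, so that 1 call upwards and 4 downwards among 9 genes are to be read against these shares. The values of the groups were fully separate for 5 of the 9 genes, and for 47.1% of all tested genes. The median log2 fold change of the 9 genes was -0.086, beside 0.010 over all tested genes. With an offset for GC content, which is described below, the calls were 1 higher and 2 lower.

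**Figure D1:**
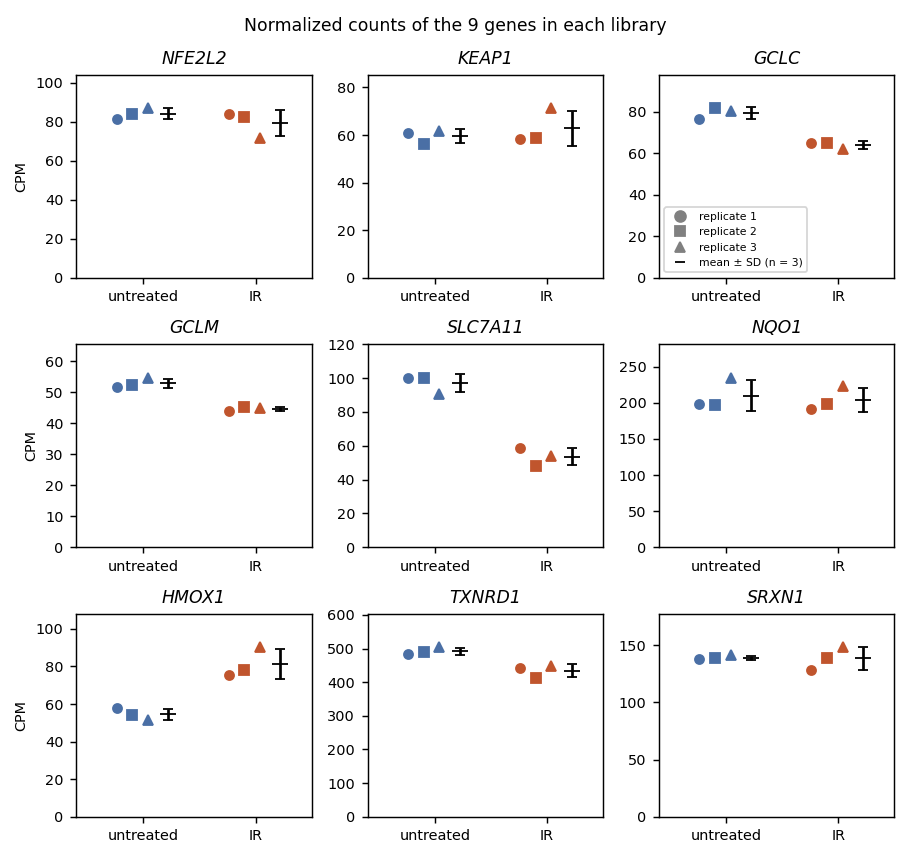
Normalized counts (CPM, scaled by the TMM-corrected library size) of the 9 genes, with 1 point per library, the shape giving the replicate number, and the mean ± SD (n = 3) beside each group; each panel has its own vertical axis from 0. SLC7A11 fell from 90.7 or above to 58.8 or below, HMOX1 rose from 57.8 or below to 75.4 or above, and the groups overlapped for NFE2L2, KEAP1, NQO1 and SRXN1.

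SLC7A11, the transporter subunit of the cystine/glutamate antiporter, had the largest change of the 9. The gene occupies chromosome 4 (GRCh38) from 138164097 to 138242349 on the minus strand, with 12 exons in its canonical transcript. Its normalized counts were 99.98, 100.1 and 90.7 CPM in untreated replicates 1, 2 and 3, and 58.8, 48.2 and 53.8 CPM in IR replicates 1, 2 and 3. The highest IR library was well below the lowest untreated library. The mean fell from 96.9 ± 5.39 to 53.6 ± 5.26 CPM (SD, n = 3 each), which is -0.85 on the log2 scale (95% confidence interval -1.04 to -0.67, standard error 0.083, adjusted P = 0.000263 in edgeR), or 0.553 times the untreated level. Its call held under each of the 14 alternative analyses, with log2 fold changes from -0.94 to -0.64. In bulk RNA, fewer cells that express a gene and less RNA per cell cannot be told apart. SLC3A2, the heavy chain with which SLC7A11 forms the antiporter, was at 130.8, 130.8 and 134.9 CPM in untreated cells and at 137.4, 135.5 and 186.3 CPM after IR (log2 fold change 0.22, adjusted P = 0.169 in edgeR), so that the messages of the partners of one antiporter were not called alike.

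GCLC, which encodes the catalytic subunit of glutamate–cysteine ligase, lies on chromosome 6 from 53497341 to 53616970 on the minus strand. Untreated libraries 1, 2 and 3 had 76.4, 81.7 and 80.3 CPM, against 65.1, 65.2 and 62.1 CPM in IR libraries 1, 2 and 3. All IR libraries were below all untreated libraries, and the IR libraries lay within a few CPM of each other. GCLC changed by -0.31 on the log2 scale (95% confidence interval -0.45 to -0.17, standard error 0.064, adjusted P = 0.00623 in edgeR), or 0.806 times the untreated level. The call held under each of the 14 alternatives, and when each library's effective transcript lengths were used as an offset the log2 fold change was -0.62.

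GCLM, for the modifier subunit of the same ligase, lies on chromosome 1 from 93885199 to 93909456 on the minus strand. Its values of 51.7, 52.4 and 54.7 CPM in untreated cells and of 44.1, 45.2 and 45.0 CPM after IR, for replicates 1, 2 and 3, did not overlap, and the IR libraries lay closer together than the untreated ones. The change of -0.24 on the log2 scale (standard error 0.064, adjusted P = 0.0185 in edgeR) was near that of GCLC, and the 2 were not tested against each other. The call was less stable than that of GCLC. It was lost with the GC offset (log2 fold change -0.097, adjusted P = 0.286 in edgeR) and with the length offset (-0.17, adjusted P = 0.508 in edgeR). It was also lost without untreated replicate 1, 2 or 3, or IR replicate 2, where the edgeR adjusted P was 0.0565, 0.0625, 0.0612 and 0.0524, with log2 fold changes of -0.26, -0.25, -0.22 and -0.25.

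TXNRD1 encodes the cytosolic thioredoxin reductase, which keeps thioredoxin reduced with electrons from NADPH. The gene lies on chromosome 12 from 104215779 to 104350307 on the plus strand. It was the most abundant of the 9 in counts, with 482.7, 490.4 and 503.2 CPM in the untreated libraries and 442.3, 413.7 and 447.4 CPM in the irradiated ones, for replicates 1, 2 and 3. The groups did not overlap, and the change of -0.18 on the log2 scale (95% confidence interval -0.32 to -0.043, standard error 0.062, adjusted P = 0.0498 in edgeR) lay at the threshold. This call was lost in 11 of the 14 alternatives, among them the GC offset (-0.10, adjusted P = 0.224 in edgeR), the length offset (-0.31, adjusted P = 0.0566 in edgeR) and each of the left-out libraries except IR replicate 3. Without untreated replicate 1, 2 or 3 the edgeR adjusted P was 0.123, 0.131 and 0.129, and without IR replicate 1 or 2 it was 0.0508 and 0.167. TXNRD1 stayed lower after IR under all 14 alternatives.

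HMOX1, whose enzyme breaks heme down to biliverdin, iron and carbon monoxide, was the only one of the 9 called higher. It lies on chromosome 22 from 35380361 to 35394214 on the plus strand. Normalized counts of 57.8, 54.1 and 51.8 CPM in untreated libraries 1, 2 and 3 compare with 75.4, 78.1 and 90.1 CPM in IR libraries 1, 2 and 3. Every IR library was above every untreated library, and IR replicate 3 was the highest. HMOX1 changed by 0.58 on the log2 scale (95% confidence interval 0.39 to 0.76, standard error 0.084, adjusted P = 0.00133 in edgeR), or 1.49 times the untreated level. The call held in all 14 alternatives, including without IR replicate 3, with log2 fold changes from 0.42 to 0.66. HMOX1 is also abundant in macrophages, so leukocyte markers are given beside it. Of 4 leukocyte markers, CD3E had 0 counts in every library, LYZ had no counts without IR and 0.272 CPM or less after it, and PTPRC was at 1.76 CPM or less in all libraries. CD68, a lysosomal protein, was higher after IR (log2 fold change 0.67, adjusted P = 0.0189 in edgeR), which carried the summed level of the 4 from between 7.87 and 11.1 CPM to between 12.1 and 17.8 CPM.

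The remaining 4 genes showed changes smaller than 0.1 on the log2 scale in either direction, none of them called. NFE2L2 had 81.3, 84.0 and 86.7 CPM without IR and 83.8, 82.5 and 71.7 CPM with it, for replicates 1, 2 and 3. The groups overlapped, and IR replicate 3 was the lowest library. Its log2 fold change was -0.086 (95% confidence interval -0.25 to 0.082, adjusted P = 0.412 in edgeR, two-sided exact permutation P = 0.4). NFE2L2 lies on chromosome 2 from 177218667 to 177392756 on the minus strand, and its exons overlap with those of AGPS and HNRNPA3 on the opposite strand. Whether the counting used strand is not given in the sources used here, so that reads in these overlaps may not be told apart.

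KEAP1, on chromosome 19 from 10486125 to 10503558 on the minus strand, had 60.9, 56.1 and 61.7 CPM without IR and 58.4, 58.9 and 71.2 CPM with it, for replicates 1, 2 and 3. Only IR replicate 3 lay outside the range of the untreated libraries. The log2 fold change was 0.082 (95% confidence interval -0.12 to 0.28, adjusted P = 0.514 in edgeR, two-sided exact permutation P = 0.7). NQO1, a quinone reductase widely used as a readout of NRF2, lies on chromosome 16 from 69706996 to 69726668 on the minus strand. Its values were 198.5, 196.8 and 234.4 CPM without IR and 191.2, 198.7 and 223.1 CPM with it, with replicate 3 the highest in each group. The groups overlapped almost entirely (log2 fold change -0.038, 95% confidence interval -0.23 to 0.16, adjusted P = 0.775 in edgeR, two-sided exact permutation P = 0.7).

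SRXN1 encodes sulfiredoxin, which restores over-oxidised peroxiredoxins, and lies on chromosome 20 from 646615 to 653200 on the minus strand. Its untreated libraries were at 137.4, 139.0 and 140.9 CPM, and its IR libraries spread around them at 128.3, 138.6 and 147.9 CPM. The log2 fold change was -0.0073 (95% confidence interval -0.16 to 0.15, adjusted P = 0.947 in edgeR, two-sided exact permutation P = 0.8). An overlapping gene on the same strand had no counts in any library. With 3 libraries against 3, the exact permutation test cannot give a P below 0.1, which is the value of each of the 5 called genes.

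**Figure D2:**
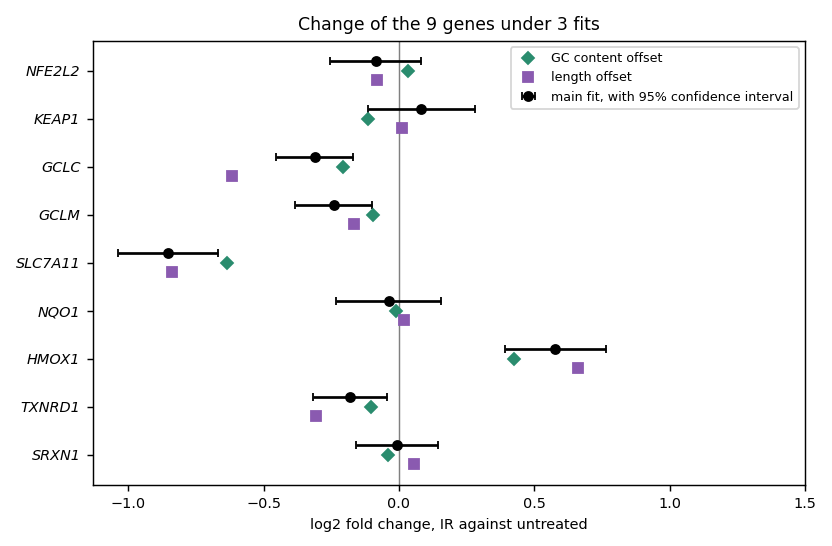
Log2 fold change (IR against untreated) of the 9 genes in the analysis without offsets (black circles, with the 95% confidence interval from edgeR) and with an offset for GC content (green diamonds) or effective length (purple squares). SLC7A11, GCLC and HMOX1 stay clear of 0 under all 3, GCLM and TXNRD1 come closer to 0 with the GC offset, and GCLC is lowest with the length offset.

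Levels can be compared between genes only per length, for which the deposited TPM values (abundances that the authors scaled by effective length and sequencing depth) were summed per gene. In untreated cells the order was NQO1 at 316 ± 44.9 TPM, TXNRD1 at 222 ± 12.1, GCLC at 75.95 ± 4.08, NFE2L2 at 60.9 ± 1.52, SRXN1 at 57.99 ± 0.834, KEAP1 at 57.3 ± 9.29, HMOX1 at 42.3 ± 0.732 and GCLM at 30.5 ± 4.77 TPM (SD, n = 3 each), followed by SLC7A11 with a mean of 16.1 TPM. Of the neighbours in this order, SRXN1 and KEAP1 overlapped, and all others were apart in the 3 libraries. The catalytic subunit GCLC was thus above its modifier partner GCLM per length, and SLC7A11, which is rich in counts because of its long transcript, was the lowest of the 9. After IR, HMOX1 at 64.9 ± 12.6 TPM (SD, n = 3) took the third place by its mean and GCLC at 47.8 ± 8.64 TPM (SD, n = 3) the seventh. SRXN1, KEAP1 and NFE2L2 lay between them at 58.5 ± 9.65, 55.8 ± 7.27 and 55.7 ± 3.42 TPM (SD, n = 3 each). The IR libraries ran from 56.6 to 79.4 TPM for HMOX1 and from 38.8 to 56.0 TPM for GCLC. Both ranges overlapped that of SRXN1, from 52.7 to 69.6 TPM. HMOX1 was above GCLC in all IR libraries, but neither was clearly ordered against the genes between them. NQO1 and TXNRD1 remained the highest at 310.2 ± 38.7 and 174 ± 15.1 TPM, and GCLM at 26.3 ± 5.48 TPM (SD, n = 3 each) and SLC7A11 with a mean of 8.74 TPM the lowest. The TPM of SLC7A11 was between 14.9 and 16.9 in untreated libraries and between 7.36 and 9.50 in IR libraries, without overlap.

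Fold changes of all genes followed GC content in these libraries, and the 9 genes span from 35.4% GC (SLC7A11) to 58.1% (KEAP1). They were therefore also set beside the tested genes whose GC content was within 2 percentage points of their own. The median log2 fold change of the 462 genes near SLC7A11 was -0.21, and 36.4% of them were called lower. SLC7A11 itself lay at percentile 2.4 of these genes. HMOX1, at 56.8% GC, had a neighbourhood of 1848 genes with a median of 0.14, of which 22.5% were called higher, and lay at percentile 92.2. GCLC, GCLM and TXNRD1, at 43.2%, 40.6% and 45.3% GC, lay at percentiles 21.1, 34.2 and 33.6 of neighbourhoods whose medians were -0.11, -0.15 and -0.075. The 4 genes that were not called lay between percentiles 33.1 (KEAP1) and 57.7 (NFE2L2). With an offset that takes out each library's dependence on GC content, SLC7A11 had a log2 fold change of -0.64 (adjusted P = 0.000573 in edgeR) and HMOX1 one of 0.42 (adjusted P = 0.0014 in edgeR). The change of GCLC was then -0.21 and stayed called.

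**Figure D3:**
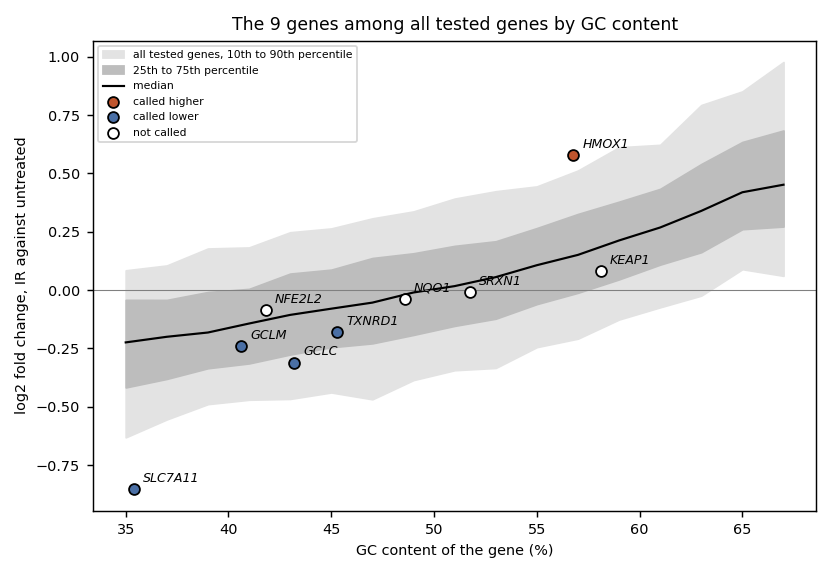
Log2 fold change (IR against untreated, vertical axis) of the 9 genes against the GC content of the gene in percent (horizontal axis), over the median (line), the 25th to 75th percentile (dark band) and the 10th to 90th percentile (light band) of all tested genes in bins of 2 percentage points. SLC7A11 lies below the light band and HMOX1 above it, and the other 7 genes lie within it.

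The use of transcripts was tested with diffSpliceDGE of edgeR and Simes p-values per gene, among genes with at least 2 transcripts that passed the filter. Of the 9 genes, 7 could be tested and 1 was called, KEAP1 (adjusted P = 0.0307 in edgeR), against 2.67% of all 10666 tested genes. The transcript KEAP1-201 starts at 10503356 and KEAP1-202 at a site further downstream. KEAP1-201 took 17.96%, 66.6% and 14.1% of the KEAP1 counts without IR, and 68.4%, 63.0% and 74.6% with it, for replicates 1, 2 and 3. KEAP1-202 took 46.0%, 3.02% and 52.8% without IR and 1.58%, 1.76% and 2.98% with it. Untreated replicate 2 thus had the shares of the IR libraries, while untreated replicates 1 and 3 had the reverse. The call rests on few libraries, since the adjusted P was 0.105 without untreated replicate 1, 0.399 without untreated replicate 3, and 0.203, 0.445 and 0.223 without IR replicates 1, 2 and 3 in edgeR. It was 0.0396 without untreated replicate 2.

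Grouped by start, the 3 KEAP1 transcripts nearest the start at 10502771, before which both KEAP1 matches printed above lie, held 46.0%, 3.14% and 52.9% of the counts without IR and 2.08%, 1.78% and 3.72% with it, for replicates 1, 2 and 3. The transcripts nearest the start at 10503356 held 34.3 ± 29.0% and 69.7 ± 5.94% (SD, n = 3 each). For TXNRD1, the start at 104287032, the second of those printed above, carried 71.4 ± 6.03% of the counts in untreated cells and 68.6 ± 10.2% after IR, and the start at 104215779 carried 25.4 ± 5.91% and 29.2 ± 10.3% (SD, n = 3 each). GCLM drew 93.4 ± 3.82% and 92.4 ± 3.81% of its counts from its start at 93909430 (SD, n = 3 each). All shares by start are sums of estimated counts over transcripts, and not reads counted at a start. TXNRD1 and GCLM were not called for transcript use, with an adjusted P of 1 for each in edgeR. SLC7A11 and SRXN1 had 1 transcript past the filter and could not be tested.

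**Figure D4:**
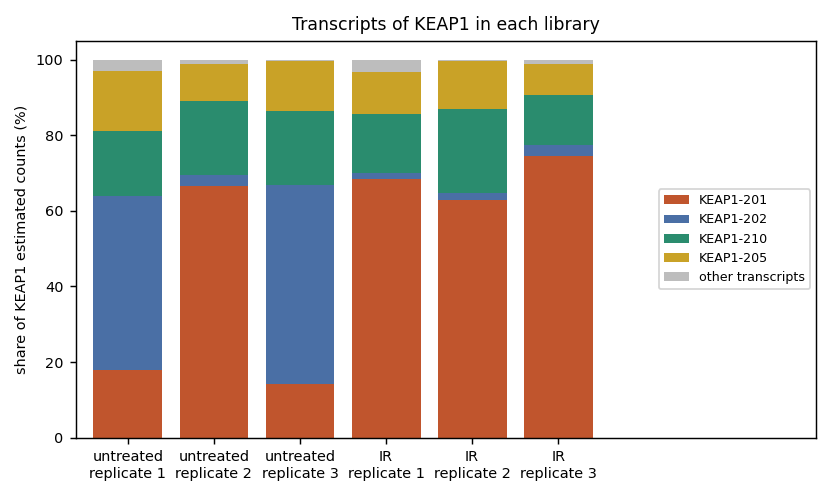
Share of the estimated counts of KEAP1 (percent, vertical axis) that each of its transcripts took in each of the 6 libraries, as stacked bars. KEAP1-201 holds 63.0% or more in the IR libraries and in untreated replicate 2 (66.6%), and KEAP1-202 holds 46.0% and 52.8% in untreated replicates 1 and 3.

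Genes around the 9 were taken from 6 lists that share some members, with 141 different genes, of which 133 were tested, 36 were higher and 6 were lower. The counts of each list stand beside the shares of 15.5% higher and 14.5% lower over all tested genes. Among regulators of NRF2, 1 of 17 tested genes was higher and 3 were lower, with a median log2 fold change of -0.035. SQSTM1, an autophagy receptor that binds KEAP1, rose from between 178.1 and 184.5 CPM to between 206.7 and 247.6 CPM (log2 fold change 0.32, adjusted P = 0.0102 in edgeR), and the call was lost with the GC offset (0.15, adjusted P = 0.0702 in edgeR) and the length offset (0.41, adjusted P = 0.0564 in edgeR). CUL3, the scaffold of the ligase that degrades NRF2, fell from between 109.3 and 112.2 CPM to between 77.6 and 94.1 CPM (-0.36, adjusted P = 0.00692 in edgeR), which was -0.18 and no longer called with the GC offset (adjusted P = 0.0838 in edgeR) and -0.64 with the length offset. CAND1, which exchanges the substrate receptors of cullin ligases, and AMER1, which binds KEAP1, were the others called lower. CAND1 had a log2 fold change of -0.22 (adjusted P = 0.0354 in edgeR). It has 37.7% GC, and all tested genes from 36% to 38% GC had a median of -0.20. AMER1 had a log2 fold change of -0.29 (adjusted P = 0.0211 in edgeR), with a call that was lost without untreated replicate 1, untreated replicate 2 or IR replicate 2 (adjusted P of 0.0723, 0.0852 and 0.0732 in edgeR) and with the length offset (-0.23, adjusted P = 0.179 in edgeR). BACH1, the repressor that competes with NRF2 at the HMOX1 gene, was lower in all IR libraries but not called (-0.15, adjusted P = 0.114 in edgeR).

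Among 36 tested further targets of NRF2, 6 were higher and 1 was lower, with a median of 0.18. The genes called higher were ABCC3, BLVRB, OSGIN1, BLVRA, SQSTM1 and FTH1. ABCC3, an exporter of organic anions and conjugates, rose from between 14.9 and 20.2 CPM to between 24.5 and 28.7 CPM (log2 fold change 0.66, adjusted P = 0.00383 in edgeR). GSR, the glutathione reductase, fell from between 84.7 and 90.7 CPM to between 74.2 and 76.0 CPM (-0.22, adjusted P = 0.024 in edgeR). Its call was lost with the length offset (-0.29, adjusted P = 0.081 in edgeR) and without untreated replicate 1, 2 or 3 or IR replicate 2 (adjusted P of 0.0625, 0.0799, 0.0743 and 0.0806 in edgeR). TXN, the substrate of TXNRD1, was not called (0.16, adjusted P = 0.121 in edgeR).

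The list of glutathione synthesis and use had 16 genes higher and 1 lower of 42 tested, with a median of 0.22, the highest of the 6 lists, where 15.5% of all tested genes were higher and 14.5% lower with a median of 0.010. The gene called lower was GSR. Those called higher included GSS, the synthetase that completes glutathione after glutamate–cysteine ligase, and the peroxidases GPX1 and GPX4. They also included the transferases GSTM4, GSTP1, GSTO1, MGST2 and MGST3. GPX3, GPX7, GPX8, GSTM1, GSTM2, GSTM3, GSTO2 and MGST1 were tested and not called. GPX4 and GSTP1, at 60.25% and 60.17% GC, had log2 fold changes of 0.25 and 0.24. All tested genes from 60% to 62% GC had a median of 0.27. GSTM4, GSTO1, MGST2 and MGST3, at 0.31, 0.49, 0.45 and 0.26, lay above the 75th percentiles of their GC bins (0.27, 0.16, 0.087 and 0.16). GSS rose from between 57.1 and 65.5 CPM to between 77.3 and 83.7 CPM (log2 fold change 0.36, adjusted P = 0.00588 in edgeR). This direction was opposite to that of GCLC and GCLM. GSS has 55.4% GC, against 43.2% for GCLC and 40.6% for GCLM. All tested genes had medians of 0.11 at 54% to 56% GC, -0.11 at 42% to 44% and -0.14 at 40% to 42%. Whether the contrast goes beyond this GC trend was not tested. GPX1, which reduces hydrogen peroxide with glutathione, rose from between 30.5 and 31.97 CPM to between 48.4 and 68.97 CPM (0.84, adjusted P = 0.00169 in edgeR). OPLAH, which returns 5-oxoproline to glutamate, had the largest log2 fold change of the list at 0.97 (adjusted P = 0.00369 in edgeR) at a low level, from between 3.84 and 5.08 CPM to between 6.92 and 9.76 CPM. With the GC offset OPLAH and GPX1 were level at 0.51 each, and both stayed called. With the GC offset the list had 16 higher and 1 lower, and with the length offset 5 higher and 0 lower. Without untreated replicate 1 or 2, 8 genes of the list were called higher and 0 lower.

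Of 22 tested genes for thioredoxins, peroxiredoxins and other antioxidants, 8 were higher and 1 was lower, with a median of 0.17. SESN1 and SESN2, sestrins that are known targets of p53, rose by 0.87 and 0.80 on the log2 scale (adjusted P = 0.00022 and 0.000308 in edgeR), whereas SESN3 fell by 0.29 (adjusted P = 0.0116 in edgeR). The SESN3 call was lost with the GC offset (-0.11, adjusted P = 0.274 in edgeR), the length offset (-0.29, adjusted P = 0.104 in edgeR), without untreated replicate 2 (adjusted P = 0.0586 in edgeR) and without IR replicate 2 (adjusted P = 0.0501 in edgeR). TXNRD2, the mitochondrial counterpart of TXNRD1, was higher (0.48, adjusted P = 0.00508 in edgeR). It has 60.0% GC, and all tested genes from 60% to 62% GC had a median of 0.27 and a 75th percentile of 0.43.

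For heme and iron, 5 of 16 genes were higher and 1 was lower, with a median of 0.090. BLVRA and BLVRB, the biliverdin reductases that act after heme oxygenase, and FTH1, the ferritin heavy chain that stores iron, were called higher with HMOX1. The log2 fold changes were 0.39 for BLVRA, 0.60 for BLVRB and 0.25 for FTH1 (adjusted P = 0.00722, 0.00755 and 0.0121 in edgeR). BLVRB was at 0.30 with the GC offset and at 0.40 without IR replicate 3, and stayed called in both. HMOX2, the constitutive heme oxygenase, rose by 0.38 (adjusted P = 0.00905 in edgeR). SLC48A1, a heme transporter, was also higher (0.51, adjusted P = 0.00952 in edgeR), and with the length offset it missed the threshold (0.52, adjusted P = 0.0572 in edgeR), while with the GC offset it was at 0.33 and called. Another 10 genes of the list were not called, among them FTL, the ferritin light chain (0.19, adjusted P = 0.147 in edgeR). SLC40A1 and TFRC, also not called, were lower in all IR libraries, at -0.13 and -0.17 (adjusted P = 0.215 and 0.0852 in edgeR). Log2 fold changes were positive for 10 genes of the list and negative for 6. The gene called lower was IREB2, an RNA-binding regulator of iron genes (-0.22, adjusted P = 0.0261 in edgeR). IREB2 was at -0.48 with the length offset, and was not called with the GC offset (-0.071, adjusted P = 0.364 in edgeR) or without untreated replicate 1, 2 or 3 or IR replicate 2 (adjusted P of 0.102, 0.0868, 0.0555 and 0.0911 in edgeR).

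The ATF4 axis, a stress pathway that also drives SLC7A11, had 5 of 15 genes higher and 0 lower, with a median of 0.057. ATF4 itself was at 392.6, 381.1 and 405.0 CPM in untreated cells and 423.2, 453.6 and 410.9 CPM after IR and was not called (log2 fold change 0.13, adjusted P = 0.158 in edgeR). ATF3, a stress-induced repressor and activator of the same family, rose from between 25.8 and 27.8 CPM to between 41.6 and 47.5 CPM (0.76, adjusted P = 0.000328 in edgeR). SESN2, TRIB3, CEBPB and PPP1R15A were the others called higher. CEBPB was at 0.42 with 66.2% GC, and all tested genes from 66% to 68% GC had a median of 0.45. TRIB3 was at 0.37 with 61.5% GC, between the median of 0.27 and the 75th percentile of 0.43 from 60% to 62% GC. SESN2 and PPP1R15A, at 0.80 and 0.41, lay above the 75th percentile of 0.38 from 58% to 60% GC. Log2 fold changes were positive for 10 genes of the list and negative for 5, among them ASNS at -0.11 and PSAT1 at -0.065. Whether ATF4 bears on the change of SLC7A11 was not tested. With the GC offset 2 genes of the list were called higher.

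By their profile over the 6 libraries, the tested gene most like each of the 9 was found among 11676 candidates with a mean of at least 100 counts, by the root mean square difference of log2 CPM centred on its mean. MN1 was nearest to SLC7A11 at 0.064, with a log2 fold change of -0.85, and this was the most distant of the 9 pairs. OGDHL was nearest to HMOX1 at 0.021, with a log2 fold change of 0.59. ZBTB39 was nearest to GCLC at 0.017 and HIF1AN to GCLM at 0.021. SLC39A10 was nearest to TXNRD1 at 0.011, DYNC1I2 to NFE2L2 at 0.014 and CRIPT to KEAP1 at 0.011. BLMH was nearest to NQO1 at 0.0086 and AXIN1 to SRXN1 at 0.018. None of these nearest genes was on the lists above or among the 9. For genes that hardly change, such as NQO1 and SRXN1, a small difference mainly says that both profiles are flat.

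The labels and the cell line were checked against genes known to mark them. CDKN1A, the p53 target that encodes p21, rose from between 120.3 and 123.7 CPM to between 322.4 and 390.0 CPM (log2 fold change 1.53, adjusted P = 2.82e-05 in edgeR), without overlap. The mesenchymal markers VIM, COL1A1, SPARC and FN1 were at 947 CPM or more in every library, and COL1A2 was at 2.14 CPM or less. Of the remaining markers on this list, RUNX2, a transcription factor of bone, was called lower (between 15.5 and 16.1 CPM without IR and between 11.3 and 13.9 CPM after it, adjusted P = 0.025 in edgeR), and S100A6, a calcium-binding protein, was called higher (between 138.8 and 161.9 CPM and between 196.1 and 225.0 CPM, adjusted P = 0.0029 in edgeR). CDKN2A, which is silent in this line, had 0 counts, and TERT was at 0.0977 CPM or less. Of 4 epithelial markers the summed level was between 11.5 and 14.3 CPM, with CDH1 called higher after IR at 3.43 CPM or less (adjusted P = 0.0465 in edgeR), and of 3 endothelial markers it was between 3.17 and 5.11 CPM. Within each group, replicates differed beyond sampling noise, with a chi-square per gene from 3.44 to 9.16 in the pairs without IR replicate 3 and of 29.1 and 32.2 in the pairs with it, so that each library was counted as 1 sample.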

How the data were processed

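The authors trimmed reads with fastp and assigned them with kallisto to GENCODE release 37 of GRCh38. Per transcript, the deposited files hold an estimated count (not normalized), a TPM value and 2 lengths. The library kit is one for total RNA in the methods of the study and one for mRNA in the labels. Here, 158711 transcripts were matched to GENCODE release 44 (2460 were not), and estimated counts were summed per gene, rounded, filtered with filterByExpr, scaled by TMM and tested with glmQLFTest (edgeR 4.0.16, limma 3.58.1, R 4.3.3), adjusted by Benjamini–Hochberg over all tested genes with a threshold of 0.05. The permutation tests were exact and two-sided. Scripts were tested on simulated data.

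The members and lists were chosen with earlier results of these data known. Named genes were the members, CDKN1A, the gene nearest each member in profile and, per list, up to 2 called genes of the highest and up to 2 of the lowest log2 fold change whose groups did not overlap and whose mean was 100 counts or more. Other genes were named after their values were seen, and 1 further marker gene is not reported here.

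Alternatives were filters on low counts, DESeq2 size factors, the DESeq2 Wald test (1.42.0), a replicate block, offsets for GC content and effective length, and leaving out each library.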

Additional observations from a re-analysis of the deposited data

How the results depend on the processing

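The call of 1 member as higher held under all 14 alternatives, and HMOX1, SLC7A11 and GCLC kept theirs in each. Members called lower numbered 4, and 2 under the replicate block, the GC offset, the GC offset with the block and the length offset, and between 2 and 4 with 1 library left out. No called member changed direction. Among members that were not called, NFE2L2 was at 0.034 with the GC offset and 0.035 with the GC offset and the block, KEAP1 at -0.11 and -0.12 in these, and NQO1 at 0.019 and SRXN1 at 0.055 with the length offset. With 1 library left out, KEAP1 ranged from -0.032 (without IR replicate 3) to 0.12, NQO1 from -0.12 to 0.049 (without untreated replicate 3) and SRXN1 from -0.070 to 0.029 (without IR replicate 1; 0.0024 without untreated replicate 3). Over all genes, 2227 were higher and 2080 lower, against 1380 higher with the GC offset and the block, 833 higher and 875 lower with the length offset, and 1295 to 2114 higher and 1244 to 2284 lower with 1 library left out. In the other lists, 36 were higher and 6 lower, against 3 lower with the block, 3 lower with the GC offset and the block, 15 higher and 3 lower with the length offset, and 22 to 40 higher and 1 to 9 lower with 1 library left out. The call of transcript use numbered 1, 0 under the replicate block (KEAP1 adjusted P = 0.52 in edgeR) and 0 to 1 with 1 library left out. The cause of these shifts was not tested.

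Whether the replicate numbers, shared between groups, pair the samples is not given in the sources used here. The deviations of same-numbered libraries from their group means correlated at -0.017, 0.007 and -0.052 for numbers 1, 2 and 3. These values show no shared shift, but they cannot tell whether same-numbered samples were prepared together. With the number as a block in edgeR, 1727 genes were higher and 1624 lower, and GCLM (adjusted P = 0.0537), TXNRD1 (0.114), GSR (0.0653) and IREB2 (0.0622) were no longer called.

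With 3 libraries per group, 1 dose and 1 time, changes such as those of GCLM and TXNRD1 lie near what these data resolve. The effective length that kallisto estimates per library may also carry a correction for sequence bias, so that the length offset is not one for length alone.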
